A study of Mus musculus with 6 samples.

Results

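Otx2, Pou3f1, Zic2, Zic5, Sox3, Sox4 and Sall2 encode transcription factors of the primed epiblast, the pluripotent tissue of the mouse embryo after implantation. Their transcripts were followed in epiblast stem cells (EpiSCs), cultured cells of that tissue, with and without Dicer. The 7 genes were taken by name from a table of 20193 genes. All 7 were measured, by 8 probe sets, and a gene with several probe sets was represented by the one with the highest mean. The Dicer -/- group held 3 samples of a line with floxed Dicer alleles that had 0.3 µM 4-OH-tamoxifen for 3 days and 2 more days without it, so that RNA was taken on day 5. The Dicer fx/fx group held 3 samples of the same floxed cells that were plated and split alongside and had no tamoxifen. Both groups grew on FCS-coated plates in N2B29 medium, with Activin at 20 ng/ml and bFGF at 12 ng/ml. Exposure to tamoxifen went with deletion in every sample, and their effects cannot be told apart. The sources used here do not give what drives the recombinase or whether the line is 1 clone. Each of experiments 18, 19 and 20 gave 1 sample per genotype, and each sample was hybridised to its own Affymetrix mouse gene array. Levels below are the authors' normalized array intensities, and differences are log2 values of Dicer -/- minus Dicer fx/fx.

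Epiblast cells leave the naive state of the early blastocyst and become primed for germ layer formation after implantation. OTX2, a homeodomain protein, and POU3F1 (OCT6), a POU-domain protein, are known to help redirect OCT4 to the enhancers of the primed state. ZIC2 and ZIC5 are zinc finger proteins, SOX3 belongs with SOX1 and SOX2 to the SOXB1 proteins, SOX4 to the SOXC proteins, and SALL2 to the spalt-like zinc finger proteins. Several of the 7 genes remain active in early neural tissue. Dicer cuts microRNA hairpins into mature microRNAs, and the miR-302, miR-290 and miR-17 families are abundant in pluripotent cells.

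Most markers fitted the labelled cell type. Of 20 other primed epiblast genes, among them Fgf5, Dnmt3b and Cdh2, 19 lay at or above the array's median gene in all 6 arrays. Of 11 measured genes for naive pluripotency factors, 7 lay below that median in all 6 arrays. Among them were Esrrb with intensities of 124 to 153 in Dicer -/- cells and 138 to 185 in Dicer fx/fx cells, and Zfp42 with 61.0 to 66.0 in Dicer -/- cells and 66.0 to 76.3 in Dicer fx/fx cells. Another 3, Klf2, Klf4 and Klf5, lay at or above the median in all 6 arrays. Klf5 was at 1094 to 1629 in Dicer -/- cells and 1232 to 1683 in Dicer fx/fx cells. The arrays give no detection calls. These are bulk cultures, in which fewer cells of a type and less RNA per cell cannot be told apart.

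The microRNAs below are shown because they are products of Dicer in pluripotent cells. Their mature levels were not analysed here. Capitals mark the seed, bases 2 to 8, in RefSeq sequences of build GRCm38.p6. The first 3 share 1 seed, and the seed of miR-17-5p overlaps with it.
mmu-miR-291a-3p: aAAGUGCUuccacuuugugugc
mmu-miR-294-3p: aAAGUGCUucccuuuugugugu
mmu-miR-302b-3p: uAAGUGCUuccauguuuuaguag
mmu-miR-17-5p: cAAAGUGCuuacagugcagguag

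RefSeq promoter windows of build GRCm38.p6, 250 bases before to 50 bases after a transcript start, were matched for 4 of the 7 genes and covered 8 starts. They were searched on both strands for TAATCC, the core bound by OTX proteins, for the POU octamer ATGCAAAT, for the SOX motif ACAAAG and for the CCAAT box. The OTX core was found at 1 of the 8 starts, a start of Otx2, and in 7.06% of all 32851 windows. The octamer and ACAAAG were found at 0 of the 8 starts, and in 1.74% and 18.7% of all windows. The CCAAT box was found at 3 of the 8 starts, 1 each of Otx2, Sall2 and Sox4, and in 37.4% of all windows. A match is a run of letters and not a binding site. The Otx2 window with TAATCC, here on the opposite strand as GGATTA, and the Sox4 window with 4 CCAAT boxes on either strand are printed with the motifs in capitals. They are shown because Otx2 had the widest split between experiments and Sox4 the second largest mean difference of the 7.
Otx2 promoter, chr14:48665060-48665359, minus strand: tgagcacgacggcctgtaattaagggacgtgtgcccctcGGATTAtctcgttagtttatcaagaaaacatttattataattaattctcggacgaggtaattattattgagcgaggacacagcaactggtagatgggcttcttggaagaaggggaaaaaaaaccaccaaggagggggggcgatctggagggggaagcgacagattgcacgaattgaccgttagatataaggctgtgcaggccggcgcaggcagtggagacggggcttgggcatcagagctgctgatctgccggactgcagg
Sox4 promoter, chr13:28953650-28953949, minus strand: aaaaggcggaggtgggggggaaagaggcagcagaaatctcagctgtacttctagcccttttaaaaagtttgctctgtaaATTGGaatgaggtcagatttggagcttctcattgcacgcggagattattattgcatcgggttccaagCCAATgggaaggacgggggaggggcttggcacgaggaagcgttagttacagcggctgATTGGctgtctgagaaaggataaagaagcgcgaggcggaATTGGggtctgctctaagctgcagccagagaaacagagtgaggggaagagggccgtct

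None of the 7 genes passed the test of deletion. Dicer1 checked the labels: its intensity was 602, 553 and 645 in Dicer -/- cells of experiments 18, 19 and 20, against 1836, 2079 and 2098 in Dicer fx/fx cells, a difference of -1.74 ± 0.09 (limma SE, 3 arrays in each group), which left 29.9% of the control signal. Over all genes 0 rose and 1, Dicer1, fell at a limma adjusted p under 0.05, a background of 0.00495%. A fit that also took the experiment as a block called 0 of 20193 genes (0.0%), with an adjusted p of 0.0666 for Dicer1. Without the block, leaving out any 1 array or experiment also gave 0 genes that fell. Of the 7 genes 0 passed in either fit, and 0 had an unadjusted p under 0.05, against 6.0% of all genes without the block and 17.1% with it. The arrays of the 2 genotypes overlapped for each of the 7 genes, so that 0 of 7 stood apart against 13.2% of all genes. All Dicer -/- arrays lay above all Dicer fx/fx arrays for 0 of the 7 and 3.26% of all genes, and below them for 0 of the 7 and 9.93% of all genes. None of the 7 differed in the same direction in all 3 experiments, where 43.5% of all genes did. Their median difference was 0.01, against -0.04 over all genes. The median absolute difference was 0.02 among the 7 and 0.09 over all genes. In two-sided exact permutation tests of 3 arrays against 3, where 0.1 is the smallest p possible, the 7 genes gave p of 0.6 to 1. These tests did not use the pairing of arrays by experiment, so differences between experiments count as spread in them. Sall2, for example, gave 0.6 here and an unadjusted p of 0.0505 in the limma fit with the block. The plot of array levels shows the arrays of each gene in pairs.

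**Figure D1:**
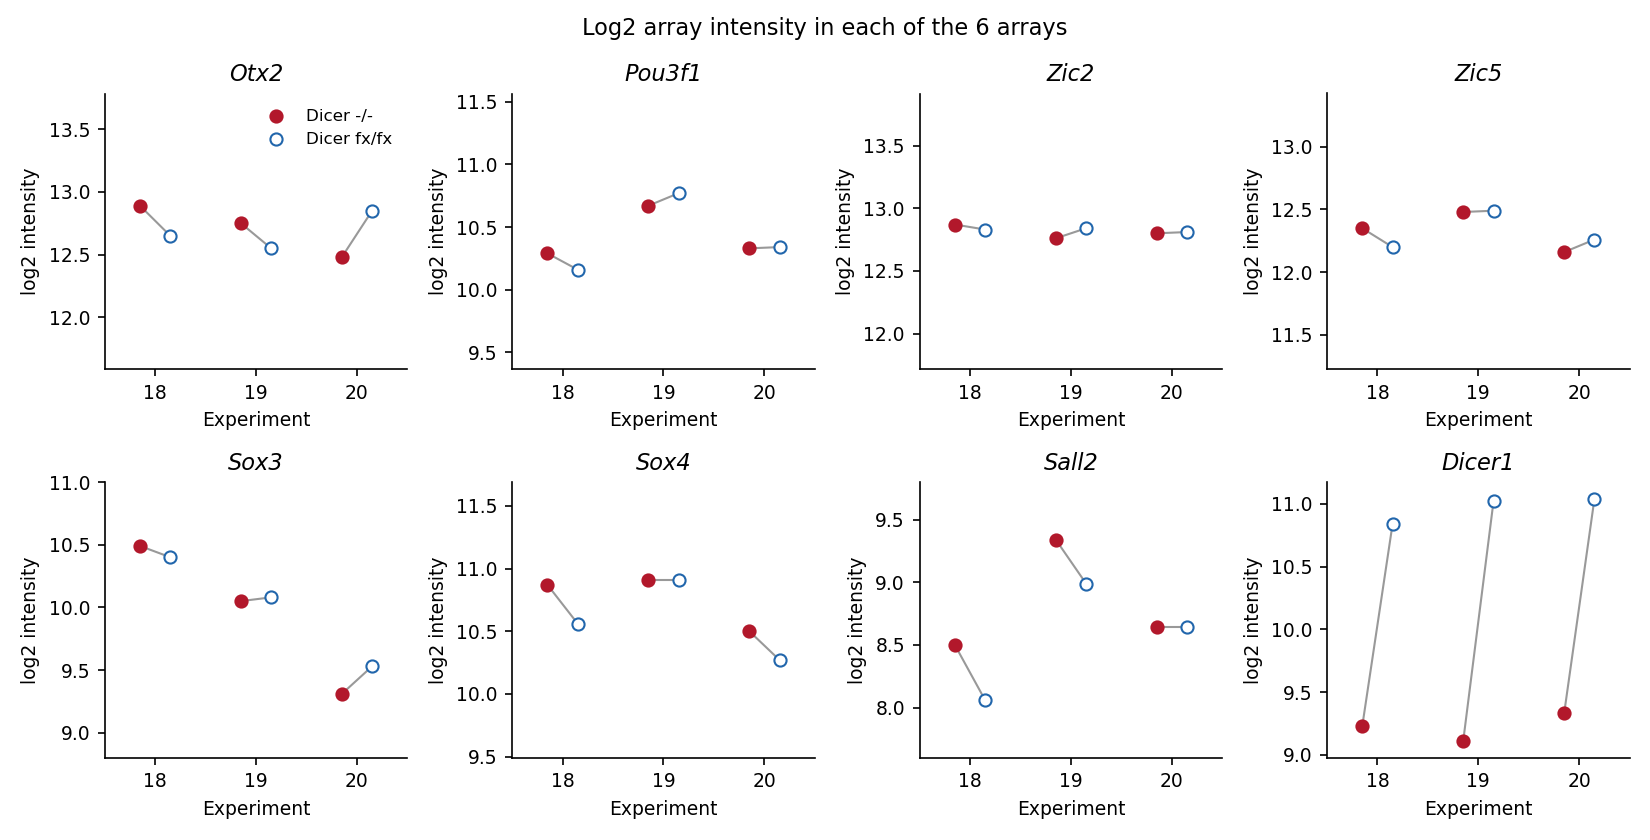
Log2 array intensity (vertical axes, each spanning 2.2 units) of the 7 genes and Dicer1 in experiments 18, 19 and 20, with the Dicer -/- array as a filled point left of the Dicer fx/fx array as an open point and a line joining the arrays of an experiment. Dicer1 is lower in Dicer -/- cells of every experiment, while the lines of the other genes slope in different directions or lie nearly flat.

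Otx2 was at 7598, 6909 and 5709 in Dicer -/- cells of experiments 18, 19 and 20, against 6438, 6013 and 7363 in Dicer fx/fx cells. It was 1.18-fold and 1.15-fold higher with deletion in experiments 18 and 19, and at 0.775 of its control in experiment 20, the widest split among the 7. The mean difference of 0.02 ± 0.13 (adjusted p = 0.997, limma) had a 95% interval from 0.807-fold to 1.28-fold. The interval with the block was as wide, 0.799-fold to 1.29-fold. Without experiment 20, the 1 with the opposite sign, the block fit put Otx2 at 0.22, with an unadjusted p of 0.023 and an adjusted p of 0.178. In that setting 1821 of 20193 genes rose and 2202 fell at an unadjusted p under 0.05. Because the experiment left out is the one that went the other way, this fit is no separate evidence of a rise. Whether the change differed between experiments was not tested, since each experiment has 1 array per genotype.

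The sign pattern of Otx2, higher in experiments 18 and 19 and lower in experiment 20, was found in 9.4% of all genes. Sall2 had it only nominally, at 0.995 of its control in experiment 20. In the other lists it was found in 4 of 20 primed epiblast genes (Dnmt3b, Foxd3, Pim2 and Nodal), 3 of 8 core pluripotency genes (Pou5f1, Sall4 and Tdgf1), 2 of 15 family relatives and 3 of 16 streak, mesoderm and endoderm genes. It was found in 1 of 15 neural genes, 1 of 10 trophectoderm and extraembryonic endoderm genes, 0 of 11 naive genes and 0 of 10 fibroblast genes. Foxd3, a forkhead repressor of the primed epiblast, had the wide form of it, with 1039, 664 and 500 in Dicer -/- cells of experiments 18, 19 and 20, against 599, 352 and 910 in Dicer fx/fx cells. Nodal, the ligand that sustains the primed state, was at 2393, 3151 and 1939 in Dicer -/- cells, against 1652, 2604 and 2824 in Dicer fx/fx cells. In both genes, as in Otx2, the Dicer fx/fx array of experiment 20 was the highest of the controls and the Dicer -/- array of that experiment the lowest of its group.

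Pou3f1 was at 1252, 1630 and 1287 in Dicer -/- cells of experiments 18, 19 and 20, against 1145, 1751 and 1300 in Dicer fx/fx cells. Both arrays of experiment 19 stood above the other 4. The mean difference was 0.004 ± 0.19 (adjusted p = 1.0, limma), with an interval from 0.723-fold to 1.39-fold, or from 0.886-fold to 1.14-fold with the block. Its sign turned to -0.02 when quantile normalization was applied again, so no direction is given.

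Zic2 had the steadiest level of the 7, with an SD of 0.04 log2 units over the 6 arrays. It was at 7484, 6924 and 7111 in Dicer -/- cells of experiments 18, 19 and 20, against 7306, 7351 and 7181 in Dicer fx/fx cells. The mean difference was -0.02 ± 0.06 (adjusted p = 0.993, limma) and its interval ran from 0.89-fold to 1.09-fold, the narrowest of the 7.

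Zic5 had 2 probe sets. The brighter one, chosen by the rule, was at 5232, 5729 and 4562 in Dicer -/- cells of experiments 18, 19 and 20, against 4716, 5748 and 4918 in Dicer fx/fx cells. The dimmer one was at 669, 701 and 606 in Dicer -/- cells, against 595, 725 and 636 in Dicer fx/fx cells. They moved alike across the arrays (Pearson r = 0.973 over 6 arrays, a description) and neither separated the genotypes. The difference was 0.01 ± 0.12 for the brighter and 0.02 ± 0.10 for the dimmer probe set, each with an adjusted p of 0.998 (limma). The 2 probe sets list 2 Ensembl transcripts in common, and the brighter one lists 1 more. RefSeq places Zic5 on chromosome 14 beside Zic2. Of the 20 named probe sets nearest to the brighter one in probe set number, 0 belong to genes of chromosome 14 and 19 to genes of chromosome 11, while for the dimmer one 14 of 20 belong to chromosome 14. For the other 6 genes 17 to 20 of the 20 nearest lay on the gene's own chromosome. What the brighter probe set hybridises to was not tested, and its level is therefore given beside that of the dimmer one.

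**Figure D2:**
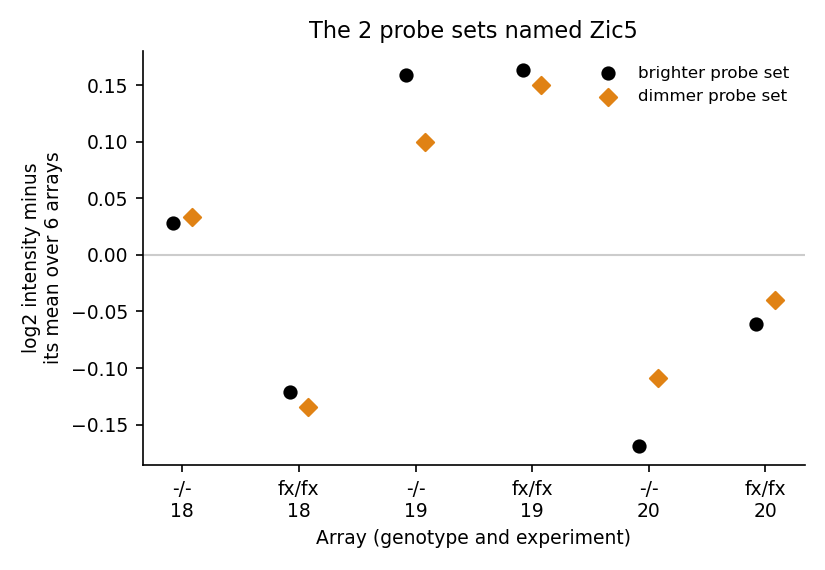
Log2 intensity of the 2 Zic5 probe sets in each array, as the deviation from the mean of that probe set over the 6 arrays (vertical axis, log2 units), with the Dicer -/- array left of the Dicer fx/fx array in each experiment. Both probe sets are high in the arrays of experiment 19 and lie within 0.1 log2 units of each other in every array.

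Sox3 was at 1439, 1059 and 636 in Dicer -/- cells of experiments 18, 19 and 20, against 1350, 1084 and 738 in Dicer fx/fx cells. The arrays fell into order by experiment, with the genotypes side by side within each. The mean difference was -0.05 ± 0.36 (adjusted p = 0.998, limma), and the interval narrowed from 0.517-fold to 1.8-fold without the block to 0.838-fold to 1.11-fold with it. Sox4 was at 1867, 1923 and 1448 in Dicer -/- cells, against 1512, 1927 and 1235 in Dicer fx/fx cells. It was 1.24-fold higher with deletion in experiment 18 and 1.17-fold higher in experiment 20, and at 0.998 of its control in experiment 19. Its mean difference of 0.18 ± 0.20 had an adjusted p of 0.95, or 0.335 with the block, where the interval ran from 0.98-fold to 1.3-fold.

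Sall2 had the largest mean difference of the 7, 0.26 ± 0.32 (adjusted p = 0.955, limma), and 10.7% of all genes had a larger one in size. It was at 362, 650 and 398 in Dicer -/- cells of experiments 18, 19 and 20, against 268, 509 and 400 in Dicer fx/fx cells. It was 1.35-fold and 1.28-fold higher with deletion in experiments 18 and 19, and at 0.995 of its control in experiment 20. With the block the interval ran from 0.999-fold to 1.43-fold, with an unadjusted p of 0.0505 and an adjusted p of 0.293. Without experiment 20 the block fit gave 0.39 with an adjusted p of 0.0546, in a setting where 314 genes rose and 74 fell. The control of experiment 18 was the lowest array and the 1 value among the 7 genes that lay below the array's median gene.

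**Figure D3:**
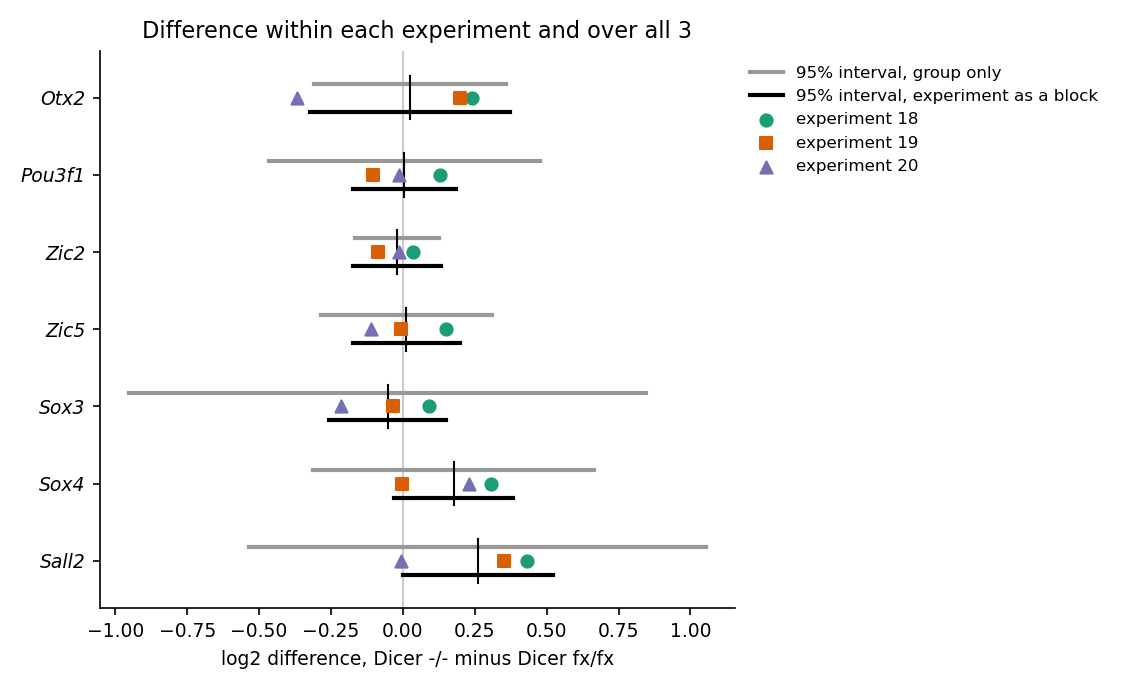
Log2 difference of Dicer -/- minus Dicer fx/fx (horizontal axis) for each gene within experiments 18, 19 and 20 (points), with the mean (vertical tick) and the 95% interval of the limma fit without the experiment (grey) and with the experiment as a block (black). Every interval holds 0, and the block narrows that of Sox3 the most while leaving that of Otx2 as wide.

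Levels of 4 of the 7 genes changed between experiments. The experiment term of the fit with genotype and experiment passed at an adjusted p under 0.05 for these 4, against 21.4% of all genes. Brighter genes passed more often. In a fit of only the 10097 genes with a mean at or above the median level, which include all 7, 3867 passed, among them these 4. Sox3 gave an adjusted p of 0.00938, Sall2 0.0218, Pou3f1 0.0313 and Sox4 0.0423 (limma F test). Zic5 gave 0.152, Zic2 0.84 and Otx2 0.842. The mean of both genotypes spanned 2.03-fold over the experiments for Sox3, 1.85-fold for Sall2, 1.44-fold for Sox4 and 1.41-fold for Pou3f1, against 1.04-fold for Zic2.

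The experiments did not rank alike for the 4 genes. Sox3 was 0.38 log2 units higher in experiment 18 than in 19, and 0.65 higher in 19 than in 20, where a difference between any 2 experiments has a 95% half-width of 0.25. Sall2 ranked 19 over 20 over 18, by 0.53 and then 0.36, with a half-width of 0.32. Pou3f1 was 0.39 higher in experiment 19 than in 20, while experiments 20 and 18 differed by 0.11, within the half-width of 0.22. Sox4 was 0.53 higher in experiment 19 than in 20, with 18 between them and within the half-width of 0.25 of 19. Experiment 20 was also the one in which streak, mesoderm and endoderm markers were high in both genotypes. The summed intensity of their 16 genes was 6935, 11600 and 36270 in Dicer -/- cells of experiments 18, 19 and 20, against 6066, 8994 and 41200 in Dicer fx/fx cells. Of the 16, 10 passed on the experiment term, against 21.4% of all genes. The part of such cells in the low Sox3 and Sox4 of that experiment was not tested.

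**Figure D4:**
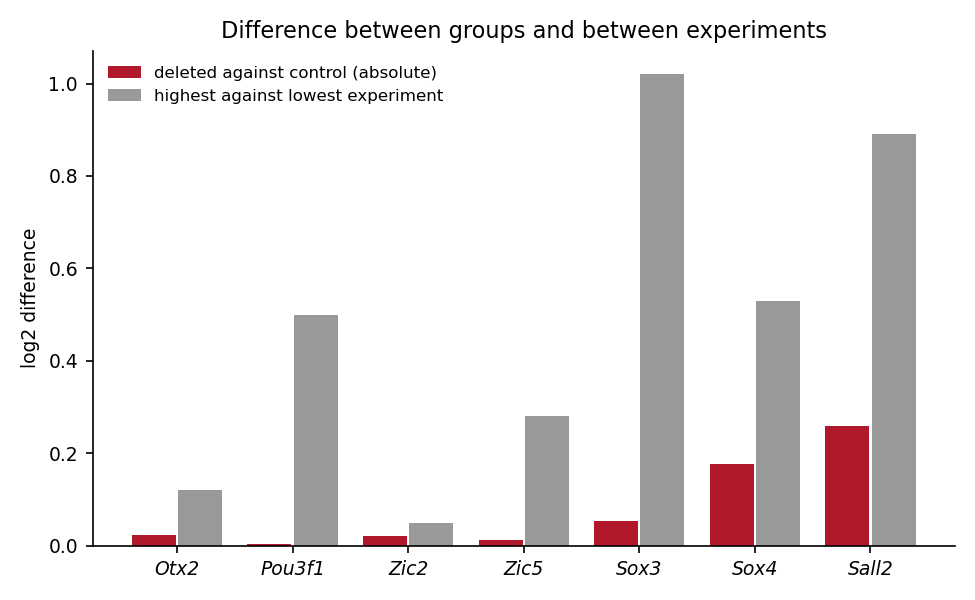
Absolute log2 difference between Dicer -/- and Dicer fx/fx means (red bars) beside the log2 span from the lowest to the highest experiment mean (grey bars) for each of the 7 genes. The grey bar, a span over 3 means rather than 2, is the taller one for all 7, with 1.02 for Sox3 and 0.05 for Zic2.

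The relatives of the 7 genes in the same protein families gave no call either. Of 15 measured relatives 0 passed in either fit, with a median difference of -0.01. In all 3 experiments the Dicer -/- array was higher for Sox2, Sox12 and Sall3, as for 15.2% of all genes, and lower for Pou3f2, Pou3f3 and Crx, as for 28.3% of all genes. Pou3f2 (BRN2), a neural POU factor, had the smallest unadjusted p, 0.00182. It was at 129, 128 and 131 in Dicer -/- cells of experiments 18, 19 and 20, against 159, 181 and 166 in Dicer fx/fx cells. All its Dicer -/- arrays lay below its Dicer fx/fx arrays, as in 9.93% of all genes. The difference was -0.38 ± 0.07 (adjusted p = 0.824, or 0.152 with the block), at a level below the array's median gene, where the median difference of 9243 genes was -0.05. Crx, the relative of Otx2 active in photoreceptors, was likewise dim and below its controls in every array, with a difference of -0.14 ± 0.07 (adjusted p = 0.837). Otx1 was at -0.01 ± 0.10, Pou3f3 at -0.15 ± 0.11 and Pou3f4 at -0.03 ± 0.07.

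On the experiment term 6 of the 15 passed, among them Sox2, Sox12, Sall1 and Sall4, against 21.4% of all genes. Sox2, the SOXB1 partner of OCT4, was at 1752, 2905 and 3145 in Dicer -/- cells of experiments 18, 19 and 20, against 1682, 2478 and 2808 in Dicer fx/fx cells. Its order over the experiments was thus the reverse of that of Sox3, with experiment 18 lowest and 20 highest in both genotypes (experiment term adjusted p = 0.00932). The third SOXB1 gene, Sox1, lay between 352 and 490 in Dicer -/- cells and between 381 and 420 in Dicer fx/fx cells and did not pass on either term. Zic1 and Zic4, of the same family as Zic2 and Zic5, were dim, at -0.03 ± 0.08 and -0.05 ± 0.13.

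The SOXC gene Sox12 resembled Sox4 in its order over the experiments, with 1473, 1888 and 1393 in Dicer -/- cells of experiments 18, 19 and 20, against 1290, 1831 and 1232 in Dicer fx/fx cells. It was 0.14 ± 0.20 with deletion, and Sox11 was at -0.05 ± 0.20. Sall4, needed for pluripotency, was at 3580, 4356 and 5402 in Dicer -/- cells, against 3402, 3989 and 6258 in Dicer fx/fx cells. Sall1 was at 852, 1157 and 1361 in Dicer -/- cells, against 662, 965 and 1497 in Dicer fx/fx cells. Both were highest in experiment 20, whereas Sall2 was highest in experiment 19. Sall3 was at 0.12 ± 0.09 (adjusted p = 0.896).

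**Figure D5:**
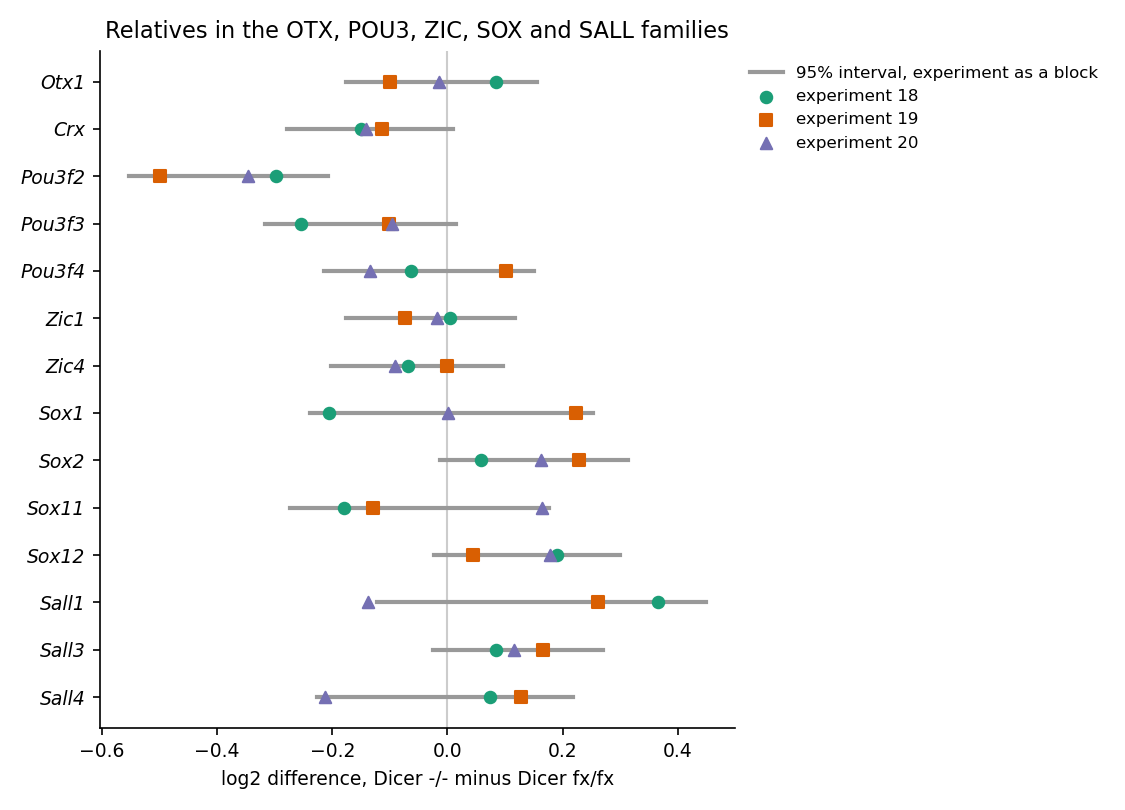
Log2 difference of Dicer -/- minus Dicer fx/fx (horizontal axis) within experiments 18, 19 and 20 (points) for relatives of the 7 genes, with the 95% interval of the fit with the experiment as a block (grey). Among the genes drawn, the interval of Pou3f2 alone leaves out 0, and its adjusted p over all genes is 0.152.

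Other genes of the primed state were counted for comparison. Of 20, 0 passed in either direction in either fit, 9 had a higher and 11 a lower mean with deletion, and the median was -0.06. Pim2, a survival kinase gene, was at 0.31 ± 0.22 (adjusted p = 0.896) and Dnmt3a, a DNA methyltransferase gene, at 0.13 ± 0.08 (adjusted p = 0.886). With the block, Cdh2, the N-cadherin gene, had the smallest adjusted p of the list, 0.138. It was at 2012, 1931 and 6107 in Dicer -/- cells of experiments 18, 19 and 20, against 1315, 1134 and 4336 in Dicer fx/fx cells, 1.53-fold, 1.7-fold and 1.41-fold higher within the experiments. It was named after its values were seen, whereas Pim2, named by the unblocked p, had mixed signs. On the experiment term 8 of the 20 passed, against 21.4% of all genes. Nearly all of the 20 are bright, and of the 10097 genes at or above the median level 3867 passed. Of 8 core pluripotency genes 0 passed. Dppa4, which was dim, was at -0.22 ± 0.10 (adjusted p = 0.833) and the bright Zfp281 at 0.07 ± 0.06 (adjusted p = 0.93). Of the 11 naive genes 0 passed, with Nr5a2, also dim, at 0.10 ± 0.05 (adjusted p = 0.85) and Gbx2 at -0.23 ± 0.14 (adjusted p = 0.871).

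Likeness was measured as Pearson's r of log2 levels over the 6 arrays, among the 10090 other genes whose mean reached that of the median gene, as a description. Sox3 was matched best by R74862 and F730047E07Rik (r = 0.998 for both), and 284 genes reached an r of 0.95 with it. Sall2 was nearest to Ring1 (0.997) and Rel (0.99), Sox4 to Tmco7 (0.995) and Copz2 (0.993), Zic5 to Narg2 (0.993) and Bcl7c (0.991), and Pou3f1 to Ccdc88c (0.993) and Hlcs (0.989). Fewer genes resembled Otx2 and Zic2: 4 reached 0.95 with Otx2, led by Glrx (0.974) and C1d (0.962), and 2 with Zic2, Fbxo6 (0.977) and Krtap16-4 (0.951). Among the 7, Pou3f1 went with Sall2 (r = 0.89) and Zic5 (0.86), all highest in experiment 19, while Sox3 and Sall2 had an r of -0.22.

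The measured neighbours in the RefSeq gene order also gave no call. Next to Sox4, Cdkal1 lay between 10.92 and 11.07 on the log2 scale in all 6 arrays, with a difference of 0.00 ± 0.06. Zic2 and Zic5 are each other's nearest measured neighbour, and their levels had an r of -0.06. Near Sall2, Tox4 was at -0.01 ± 0.13, and after Zic2, Pcca was at 0.22 ± 0.21 (adjusted p = 0.936).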

How the data were processed

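RNA of 6 samples, 3 Dicer -/- and 3 Dicer fx/fx, was measured on Affymetrix MoGene 1.0 ST arrays. The authors used Affymetrix Expression Console 1.2 and RMA, per the submitters' processing notes. The annotation is mm9, per the file headers. The authors deposited a linear intensity per probe set, called raw in the header although the arrays have nearly equal medians (247.7 to 260.1), and a log2 value centred on the probe set's median; the 2 deposited forms differ by at most 2.31e-06 on the log2 scale. A shift of total RNA cannot be seen after RMA.

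Of 28856 probe sets, 22439 named 1 symbol, and 20193 genes remained after taking the brightest probe set of a gene. Log2 intensities were fitted with limma 3.58.1 in R 4.3.3 (lmFit, eBayes, genotype only; Benjamini-Hochberg over all genes, threshold 0.05). On simulated data this fit found 0% of differences of 0.3, and the block fit found 7%. At 0.6 they found 2.9% and 92.9%, and the block fit made 16.2 false calls per run. At 1.2 the block fit found 99.4%, although on the arrays it did not call Dicer1 at -1.74. Whether these rates hold for the arrays was not tested. The largest mean difference among the 7 genes was 0.26, so a gene that did not pass is not shown to be unchanged. The experiment numbers pair the samples, as the labels place both genotypes in each experiment; deviations from group means correlated with r of 0.83, 0.61 and 0.80 in experiments 18, 19 and 20. The block with the experiment was therefore fitted beside it, and its F test gave the experiment term. The labels call the experiments independent. Exact permutation tests used scipy 1.17.1, and figures matplotlib 3.10.9. The number of arrays limits the precision.

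The 7 genes, the 8 other lists and the alternatives were chosen with earlier results of these data known. Named were the 7 genes, Dicer1, relatives, from each list any called genes, otherwise the 2 lowest in unadjusted p, genes a result on the 7 turned on, the 2 most alike and the nearest neighbours. RefSeq tables of GRCm38.p6 gave names, order and sequences, with no gene coordinates, since that build differs from mm9. Values of 1 relative are not reported here.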

Additional observations from a re-analysis of the deposited data

How the results depend on the processing

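The count of the 7 genes that passed the test of deletion was 0 under every alternative run, the lowest and highest count without 1 array or 1 experiment being 0 and 0. The smallest adjusted p among the 7 in any of these settings was 0.0546, for Sall2 without experiment 20 and with the block. The sign of Pou3f1 turned to -0.02 with quantile normalization applied again, and the cause was not tested. No other sign among the 7 turned in the settings that kept all arrays. Leaving out 1 array or experiment moved the difference between -0.083 and 0.22 for Otx2, -0.129 and 0.178 for Pou3f1, -0.053 and 0.01 for Zic2, -0.064 and 0.1 for Zic5, -0.323 and 0.266 for Sox3, 0.022 and 0.342 for Sox4, and 0.001 and 0.472 for Sall2. Among these, with the block, signs turned for Otx2 (-0.083 without experiment 18, -0.064 without 19), Pou3f1 (-0.059 without 18), Zic2 (0.01 without 19), Zic5 (-0.057 without 18) and Sox3 (0.029 without 20); the cause was not tested. Over all genes, the 1 gene that fell became 0 with the block, with the block and the second Zic5 probe set, which was chosen after seeing the data, and with eBayes trend and robust settings. Leaving out arrays or experiments gave 0 to 314 genes higher and 0 to 74 lower, and 0 of either in every such setting but the block without experiment 20. The block changed no other call. On the experiment term, 4 of the 7 passed in all settings run. The series table holds the same values as the normalized columns, so that alternative moved nothing. With 3 arrays per group, intervals of up to 2-fold remain for Sall2 and Sox3 in the fit without the block.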

Other observations

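Markers of fibroblasts, neural cells, germ layers and extraembryonic tissues gave 0 calls at an adjusted p under 0.05 in either limma fit. Among 10 fibroblast and feeder markers, Acta2, which encodes smooth muscle actin, was at 0.87 ± 0.32 (adjusted p = 0.831, or 0.196 with the block). Tagln was at 0.61 ± 0.28 (adjusted p = 0.833, or 0.282 with the block). Named after their values were seen, Dcn was at 0.35 ± 0.20, Pdgfrb at 0.30 ± 0.15 and Col1a1 at -0.06 ± 0.07. Acta2, Dcn and Pdgfrb were higher with deletion in all 3 experiments. In the block fit 4 of the 10 had an unadjusted p under 0.05, against 17.1% of all genes. Acta2 had 6444, 6099 and 5097 in Dicer -/- cells of experiments 18, 19 and 20, against 2996, 5148 and 2146 in Dicer fx/fx cells, so 1 control overlapped the Dicer -/- range. The summed intensity of the 10 markers was 8732 to 9888 in Dicer -/- cells and 4705 to 8964 in Dicer fx/fx cells. Without Acta2 and Tagln, the other 8 markers summed to 1931, 2015 and 1890 in Dicer -/- cells of experiments 18, 19 and 20, against 1929, 2154 and 1782 in Dicer fx/fx cells, so those ranges overlapped.

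Of 15 neural ectoderm markers, 7 had a higher and 8 a lower mean with deletion, and the median was -0.02. In all 3 experiments 5 were higher and 3 lower. Ncam1 was at 0.39 ± 0.17 (adjusted p = 0.831, or 0.221 with the block). Gbx2, also among the naive genes, was at -0.23 ± 0.14 (adjusted p = 0.871, or 0.233 with the block). Fabp7, a radial glia gene named after its values were seen, was at 388, 361 and 3326 in Dicer -/- cells of experiments 18, 19 and 20, against 233, 185 and 2011 in Dicer fx/fx cells. Its difference was 0.81, with an SE of 1.28 without the block (adjusted p = 0.975) and 0.075 with it (adjusted p = 0.138). The larger SE takes in the difference between experiments. Within experiments 18, 19 and 20 Fabp7 was 1.67-fold, 1.96-fold and 1.65-fold higher with deletion. Of the 16 streak, mesoderm and endoderm markers, 5 had a higher and 11 a lower mean with deletion. On the experiment term 10 passed, against 21.4% of all genes. Evx1 was at -0.18 ± 0.09 and Wnt3 at -0.22 ± 0.11, named by their unadjusted p without the block. In all 3 experiments, 4 of these 16 markers were higher with deletion and 5 lower, against 15.2% and 28.3% of all genes. Named after their values were seen, the 4 higher ones were T, Cer1, Foxa2 and Sox17. Mixl1, Eomes, Gsc, Lhx1 and Gata6, named in the same way, had mixed signs. They were at 0.363 to 0.54 of their controls in experiment 20. T (brachyury), a streak factor, was 2.91-fold, 4.43-fold and 1.68-fold higher in experiments 18, 19 and 20, with an adjusted p of 0.945, or 0.152 with the block. Of 10 trophectoderm and extraembryonic endoderm markers, 5 had a higher and 5 a lower mean. In all 3 experiments 2 of the 10 were higher and 4 lower, against 15.2% and 28.3% of all genes. Gata3, 1 of the 4 and named after its values were seen, was at -0.455 ± 0.27 (adjusted p = 0.86, or 0.44 with the block). Nearly all of that came from experiment 20: Gata3 was at 0.967, 0.99 and 0.406 of its controls in experiments 18, 19 and 20. The dim genes Sox7 and Afp were at -0.20 ± 0.06 and -0.17 ± 0.06 (adjusted p = 0.824 for both). The brighter Dab2 and Krt8, named after their values were seen, were at 0.53 ± 0.21 and 0.32 ± 0.39 and higher in all 3 experiments (adjusted p with the block 0.15 and 0.226).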
